A study of Mus musculus with 2 samples.

Results

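The Arp2/3 complex was followed through its 9 subunit genes, Actr2, Actr3, Arpc1a, Arpc1b, Arpc2, Arpc3, Arpc4, Arpc5 and Arpc5l, which were taken by name from the 20282 genes of a single-cell RNA sequencing matrix of mouse thymus. All 9 were in the matrix, and each was read apart. Thymocytes came from 6-week-old littermates, 5 Cdc42f/f mice and 5 Cdc42f/f CD4Cre mice, with the thymi of a genotype pooled into 1 library. The libraries are called WT and KO after their labels. Both groups carry the floxed Cdc42 allele, and Cre is driven by the CD4 promoter, which is active in thymocytes from the double-positive (DP) stage onward. With 1 library for each genotype no difference between them was tested, and the intervals given are exact 95% intervals that cover counting error only.

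The Arp2/3 complex starts new actin filaments as branches on the sides of existing ones. Actr2 and Actr3 encode the actin-related proteins Arp2 and Arp3, which form the first subunits of the new filament, and the Arpc genes encode the subunits that hold them and bind the mother filament. Alone the complex is nearly inactive. It is switched on by proteins of the WASP and WAVE families, and Cdc42 is the GTPase that releases WASP and N-WASP from their folded state while Rac acts on WAVE. Arpc1a and Arpc1b are alternative forms of the same subunit, as are Arpc5 and Arpc5l, so that one complex holds 1 of each pair. In T cells the complex builds the actin sheet of the immunological synapse.

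Levels were UMIs, the molecule counts of the droplet method, summed over the cells of a deposited cluster and scaled by all UMIs of that cluster and library to CPM. Of 13683 cells, 6115 (29706197 UMIs) belonged to the WT and 7568 (37920214 UMIs) to the KO library, and 17 cell barcodes occurred in both. Of 19 deposited clusters, 16 had at least 50 cells in both libraries. They are named here by the marker that leads them: the Rag1 clusters (0 to 4, DP cells), the Cd5 clusters (5 and 9, signalled DP cells), the Itm2a cluster (6, single-positive cells), the Ms4a4b cluster (7, mature single-positive cells), the proliferating clusters (10 to 13), the RNA-poor Lars2 cluster (8), the Myl10 cluster (14) and the B and dendritic cell cluster (15). The summed DP markers stood at 7089 CPM in the Rag1 clusters of the WT library against 617 in its Ms4a4b cluster, and the summed single-positive markers at 148 against 3164. Reads came from transcript 3′ ends, outside the floxed exon of Cdc42, so its counts do not check the deletion. Cdc42 stood at 358 CPM in the WT and 320 in the KO library in the Rag1 clusters, at 397 and 383 in the Itm2a cluster, and at 447 and 581 in the Ms4a4b cluster, where it was higher in the library labelled KO.

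Across the thymus the 9 genes did not follow one course. In the WT library the summed level of the 9 subunits was 2694 CPM in the Rag1 clusters, 3876 in the Cd5 clusters, 3435 in the Itm2a cluster, 3112 in the Ms4a4b cluster and 2327 in the proliferating clusters. In the KO library the same sums were 2771, 3894, 3752, 4223 and 2291. In CPM the libraries were close together up to the signalled DP cells and apart in the single-positive cells. There the sum was below that of the Cd5 clusters in the WT library and, in mature cells, above it in the KO library. The log2 ratio of the KO to the WT sum was 0.13 in the Itm2a cluster. The median of all genes with at least 100 UMIs was 0.15 there. In the Ms4a4b cluster these were 0.44 and 0.23. When the 16 clusters were put in order by the level of one subunit, the intervals of 13 to 15 of the 15 neighbouring pairs overlapped in the WT library and 11 to 15 in the KO library, so the ends of each order are described rather than its steps. As UMIs per cell the sum of the Itm2a cluster was 21.9 in the WT and 22.3 in the KO library. That of the Ms4a4b cluster was 21.8 and 24.2, a smaller gap than in CPM. The KO cells of the Ms4a4b cluster held a median of 5032 UMIs in all against 6737.5 in the WT cells.

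**Figure D1:**
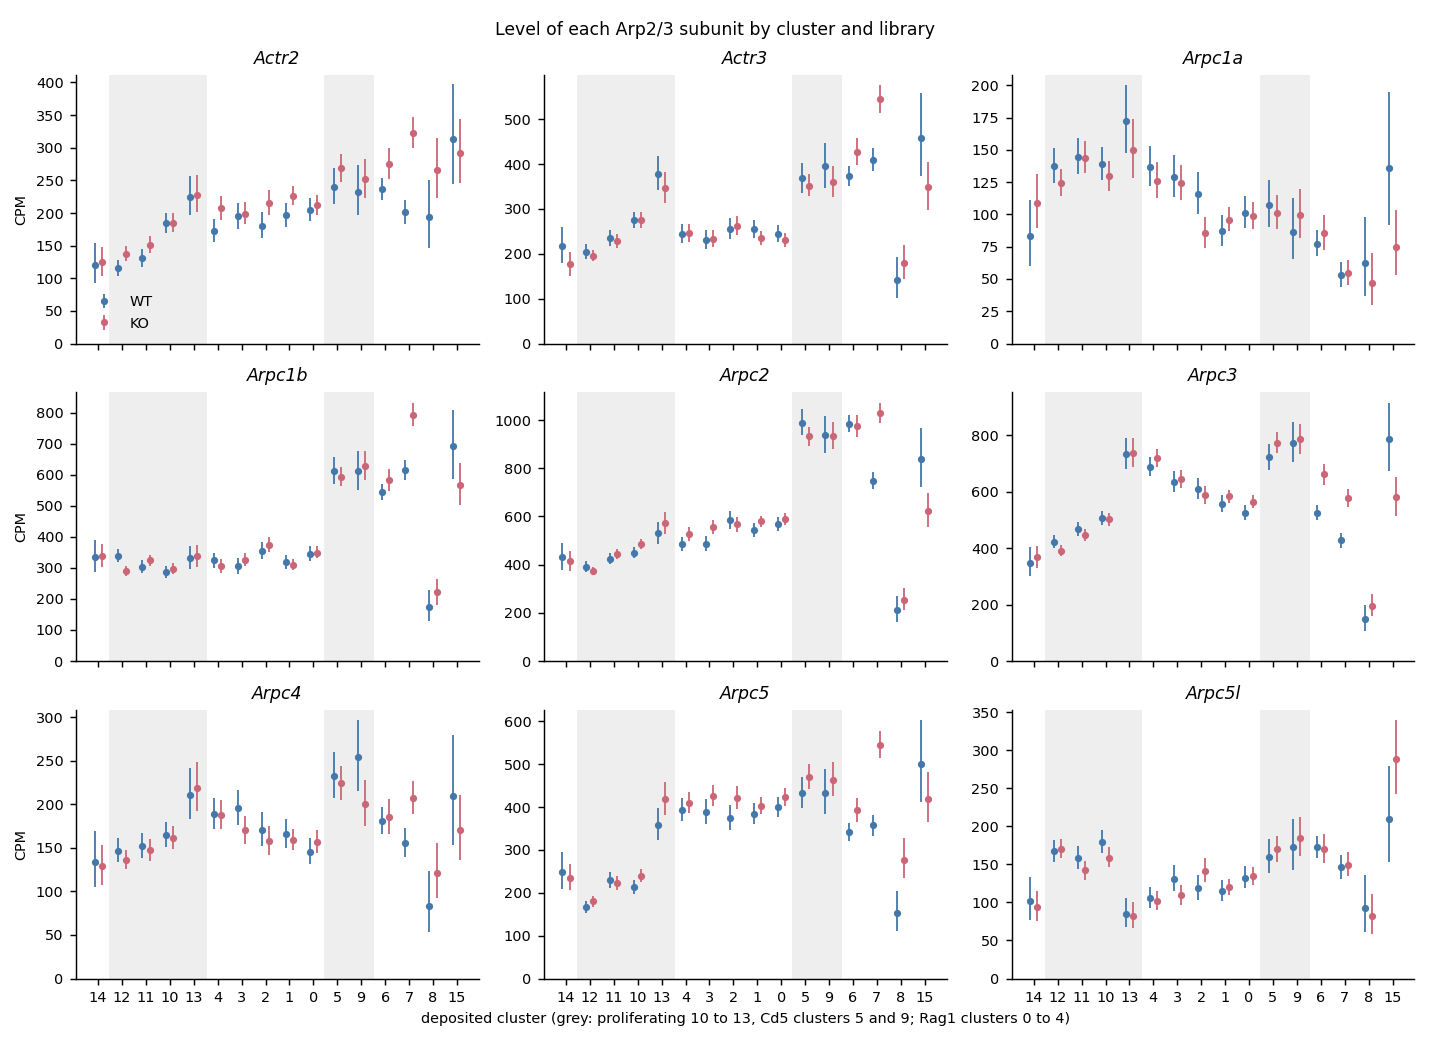
Level of each subunit (CPM, from 0) in the 16 clusters with at least 50 cells in both libraries, WT in blue and KO in red, with exact 95% Poisson intervals. The KO points of cluster 7 stand above the WT ones for Actr2, Actr3, Arpc1b, Arpc2, Arpc3, Arpc4 and Arpc5, while those of Arpc1a and Arpc5l coincide.

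Arp2 and Arp3, the subunits that seed the branch, both had their highest level in cluster 15 of the WT and in the Ms4a4b cluster of the KO library. The top of the WT order was not resolved. For Actr2 the WT interval of cluster 15 overlapped with those of clusters 5, 6, 9, 13 and 8. For Actr3 it overlapped with those of clusters 7 (the Ms4a4b cluster), 9, 13, 6 and 5. Actr2 (chromosome 11, 20062304 to 20112913, minus strand, GRCm38) ranged in the WT library from 115 CPM (interval 103 to 128) in cluster 12 of the proliferating cells to 314 (244 to 397) in cluster 15. In the KO library its highest level was 322 (300 to 347) in the Ms4a4b cluster, where the WT library had 201 (183 to 220). These intervals are apart, and the level of 322 overlapped only with clusters 15 and 8 of its own library.

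Actr3 (chromosome 1, 125392905 to 125435727, minus strand) was at 246 and 240 CPM in the Rag1 clusters of the WT and KO libraries, at 377 and 355 in the Cd5 clusters, at 374 and 427 in the Itm2a cluster and at 409 and 545 in the Ms4a4b cluster. It was higher at the signalled than at the resting DP stage in both libraries. No other cluster of the KO library had an interval that reached that of its Ms4a4b cluster (515 to 576). The last bases of Actr3 transcripts share 47.0% of their 50-base words with other annotated genes, chiefly Gm8822, which is also in the matrix, so that its counts are less certain than those of Actr2, which share none.

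The alternative forms of the Arpc1 subunit, which binds the activating proteins, had opposite courses through development. Arpc1b (chromosome 5, 145114215 to 145130705, plus strand) was at 330 and 331 CPM in the Rag1 clusters, 612 and 605 in the Cd5 clusters, 543 and 582 in the Itm2a cluster and 616 and 794 in the Ms4a4b cluster, WT first. Arpc1a (chromosome 5, 145083830 to 145108761, plus strand) was at 113 and 105, 101 and 101, 77.3 and 85.6, and 52.8 and 54.3 CPM in the same clusters. Its highest level was in the mitotic cluster 13 in both libraries, 172 (148 to 200) and 150 (128 to 174), and its WT minimum lay in the Ms4a4b cluster. Neither end was resolved, and all 15 neighbouring pairs overlapped in both libraries. Cluster 13 overlapped with clusters 11, 10, 12, 4 and 15 in the WT library. In the KO library it overlapped with clusters 11, 10, 4, 12, 3 and 14. The WT minimum (43.9 to 63.0) overlapped with clusters 8 (36.8 to 98.2) and 14 (60.3 to 111).

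The UMI share of Arpc1b within the pair was therefore 74.6% (73.3 to 75.8) in the WT Rag1 clusters and 92.1% (90.6 to 93.4) in the Ms4a4b cluster, and 75.9% (74.9 to 76.9) and 93.6% (92.4 to 94.7) in the KO library. The intervals of the libraries overlapped in the pooled Rag1 clusters and in the Ms4a4b cluster, so this share did not tell the libraries apart there. Within each library the intervals of the Rag1 and Ms4a4b clusters were apart. Those of the Cd5 and Itm2a clusters overlapped. They were 85.9% (83.9 to 87.7) and 87.5% (86.0 to 89.0) in the WT library. In the KO library they were 85.8% (84.3 to 87.1) and 87.2% (85.2 to 89.0). Taken alone, cluster 2 of the Rag1 clusters had intervals apart, 75.4% (72.3 to 78.3) in the WT and 81.5% (79.0 to 83.8) in the KO library. In the proliferating clusters the share was 68.4% and 69.6%. Of the 50-base words in the last bases of Arpc1b transcripts, 14.2% occur in other genes, mainly Gm5637, and the opposite-strand gene Pdap1 overlaps its 3′ end.

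Both genes lie on the same strand, 5454 bases apart. Their promoter windows are shown because these neighbours in tandem moved in opposite directions between the DP and the mature cells. The windows are from RefSeq on GRCm38.p6, from 250 bases before to 50 after the annotated start, at chr5:145083619-145083918 for Arpc1a and chr5:145114006-145114305 for Arpc1b, plus strand. Capitals mark matches on either strand to GGGCGG, the GC box, and to GGAAGT, an ETS-type word.
Arpc1a: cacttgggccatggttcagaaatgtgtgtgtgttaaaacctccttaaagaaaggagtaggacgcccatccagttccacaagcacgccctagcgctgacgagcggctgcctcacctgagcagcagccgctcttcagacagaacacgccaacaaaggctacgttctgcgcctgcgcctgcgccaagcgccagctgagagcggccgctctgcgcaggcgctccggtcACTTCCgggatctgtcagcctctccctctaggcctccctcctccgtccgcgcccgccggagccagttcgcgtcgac
Arpc1b: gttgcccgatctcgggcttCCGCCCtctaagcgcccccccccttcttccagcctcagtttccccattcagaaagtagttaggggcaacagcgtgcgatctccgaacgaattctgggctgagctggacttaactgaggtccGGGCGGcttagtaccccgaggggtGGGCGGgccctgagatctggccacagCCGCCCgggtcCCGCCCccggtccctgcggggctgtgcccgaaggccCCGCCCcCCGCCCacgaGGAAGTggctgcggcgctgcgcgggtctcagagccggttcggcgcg
The Arpc1b window held 7 matches to GGGCGG and 1 to GGAAGT, and the Arpc1a window 0 and 1. Among 32851 promoter windows of this length GGGCGG was in 35.7% and GGAAGT in 23.8%. Of the 8 subunits with a window, Arpc5l having none, 6 held GGGCGG, with Arpc1a and Arpc4 as the exceptions, and 7 held GGAAGT, with Arpc5 as the exception. No window held TATAAA, which was in 13.6% of all windows. No base of the windows shown lay in matches to more than 1 of these words. A match describes the letters of the window and not a site that is used.

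**Figure D2:**
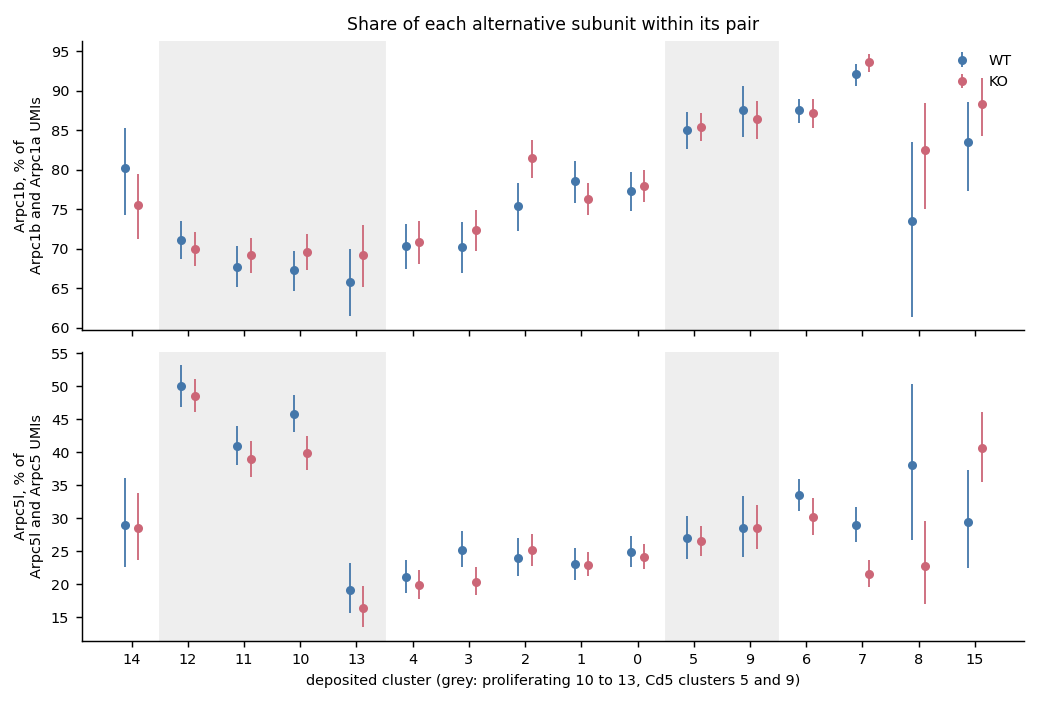
UMI share (percent) of Arpc1b in the Arpc1 pair (top) and of Arpc5l in the Arpc5 pair (bottom) by cluster, with exact 95% Clopper-Pearson intervals, WT in blue and KO in red. The Arpc1b share is above 80% in both libraries in clusters 5, 9, 6, 7 and 15, and the Arpc5l share of cluster 7 is 29.0% and 21.5%.

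Arpc2 and Arpc4 form the core that clamps the mother filament, and Arpc3 sits against Arp3. Arpc2 (chromosome 1, 74236084 to 74268209, plus strand) was at 534 and 567 CPM in the Rag1 clusters, 973 and 933 in the Cd5 clusters, 984 and 974 in the Itm2a cluster and 747 and 1028 in the Ms4a4b cluster. The intervals of the libraries were apart in the Rag1 clusters (521 to 548 and 555 to 579), overlapped in the Cd5 and Itm2a clusters and were furthest apart in the Ms4a4b cluster (712 to 783 and 987 to 1071). Arpc3 (chromosome 5, 122391878 to 122414184, plus strand) was at 598 and 613, 739 and 778, 525 and 662, and 428 and 578 CPM. It was the subunit with the widest gap between the libraries in the Itm2a cluster, where its intervals (500 to 552 and 625 to 699) were apart.

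Arpc4 (chromosome 6, 113378115 to 113390448, plus strand) was at 172 and 165 CPM in the Rag1 clusters, 239 and 216 in the Cd5 clusters, 181 and 185 in the Itm2a cluster and 155 and 207 in the Ms4a4b cluster. In the order of the 16 clusters all 15 neighbouring pairs of Arpc4 levels had overlapping intervals in both libraries, so its order is not resolved at this depth. Ttll3, on the same strand, covers the 3′ end of Arpc4 and shares 15.4% of the 50-base words there. Over the 16 clusters the pair of members most alike was Arpc3 and Arpc4 in the WT library, with r = 0.95 (0.86 in KO), and Arpc1b and Arpc2 in the KO library, with 0.91 (0.94 in WT). These correlations of log2 levels are descriptions over clusters that share a library.

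The alternative forms of the Arpc5 subunit, which tethers Arp2, parted in the proliferating cells. Arpc5 (chromosome 1, 152766542 to 152775597, plus strand) was at 389 and 415 CPM in the Rag1 clusters, 433 and 468 in the Cd5 clusters, 342 and 392 in the Itm2a cluster and 357 and 545 in the Ms4a4b cluster. Arpc5l (chromosome 2, 39005348 to 39015877, plus strand) was at 121 and 122, 164 and 175, 172 and 170, and 146 and 150 CPM. The pair was nearly unrelated over the 16 clusters, with r = 0.16 and 0.13.

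The share of Arpc5l within the pair was 23.7% (22.5 to 24.8) in the WT Rag1 clusters and 50.1% (46.9 to 53.2) in the proliferating cluster 12, and 22.7% (21.8 to 23.6) and 48.6% (46.0 to 51.1) in the KO library. In the mitotic cluster 13 it was 19.2% (15.7 to 23.2) and 16.4% (13.5 to 19.7). In the proliferating cluster 10 it was 45.8% (43.0 to 48.6) in the WT and 39.8% (37.3 to 42.4) in the KO library, with intervals apart. In the Ms4a4b cluster the libraries differed, 29.0% (26.4 to 31.7) in the WT and 21.5% (19.5 to 23.6) in the KO library. This share does not depend on the total of either library. After all cells were thinned to 1000 UMIs the shares were 28.7% (21.7 to 36.4) and 24.7% (19.6 to 30.4), with overlapping intervals. In the Itm2a cluster the intervals, 33.5% (31.1 to 35.9) and 30.2% (27.5 to 33.1), overlapped.

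The genes whose levels over the 16 clusters were most like those of each member were sought among 4418 genes with at least 1000 UMIs in the WT library. For Actr3 they were Myl6, Actb and Mea1, for Arpc1b they were Arpc2, Capzb and Myl6, and for Arpc2 they were Arpc1b, Myl6 and Otulin. The r of Actr3 with Actb was 0.94 in the WT and 0.97 in the KO library, and that of Arpc2 with Myl6 was 0.94 and 0.96. Arpc1a was most like Txn1, Ormdl2 and Anxa2, with r between 0.88 and 0.94 in the library used for the choice. Actr2 was most like Tmbim6, Lrrfip1 and Mob3a. Arpc3 was most like Arpc4, Necap2 and Myl12a, Arpc4 like Arpc3, Ucp2 and Arhgdia, and Arpc5 like Pdlim2, Acaa1a and Ftl1. Arpc5l was most like Cs, Nt5c3 and Dnajb11. All of these likenesses except those of Actr3 with Actb and of Arpc2 with Myl6 had a lower r in the KO library. The genes were chosen for the highest r in the WT library, so a lower r in the other library can come from the choice alone. In the KO library the r of Arpc5l was 0.02 with Cs, 0.32 with Nt5c3 and 0.74 with Dnajb11. That of Arpc2 with Otulin was 0.59 and that of Arpc4 with Ucp2 was 0.58.

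Within each library, the level in mature single-positive cells was set against that in DP cells, as log2 of the Ms4a4b cluster over the Rag1 clusters. This is a description, since the clusters were made from the same counts. Called here means at least 0.5 from the median of all genes with at least 100 UMIs, which was -0.43 in the WT and -0.22 in the KO library. In the WT library 5 subunits were called higher (Actr2, Actr3, Arpc1b, Arpc2 and Arpc5l) beside 23.6% of all genes, and 1 lower (Arpc1a) beside 23.0%. The WT call of Actr2, at 0.51 relative to the median, rested on that median. Its own ratio was 0.08 (-0.07 to 0.22). In the KO library 7 were called higher beside 22.9% of all genes, the additional ones being Arpc4 and Arpc5, and Arpc1a alone was called lower beside 21.4%.

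Among subunits with a higher level in mature cells Arpc1b had the largest ratio in both libraries, 0.90 (0.81 to 0.99) and 1.26 (1.18 to 1.34), followed by Actr3 with 0.73 (0.62 to 0.84) and 1.19 (1.09 to 1.28). Arpc1a had -1.09 (-1.37 to -0.82) and -0.95 (-1.23 to -0.69). The same ratio was -0.12 (-0.23 to -0.02) in the WT and 0.39 (0.30 to 0.48) in the KO library for Arpc5, and -0.14 (-0.31 to 0.02) and 0.33 (0.18 to 0.47) for Arpc4. With totals that leave out ribosomal protein and mitochondrially encoded genes the WT values of Arpc5 and Arpc4 became 0.16 and 0.14, so that their direction depended on the total, and the KO value of Arpc3 turned from -0.08 to 0.04. The ratios of Arpc5l, 0.28 (0.10 to 0.45) and 0.30 (0.12 to 0.46), were nearly equal in the 2 libraries.

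**Figure D3:**
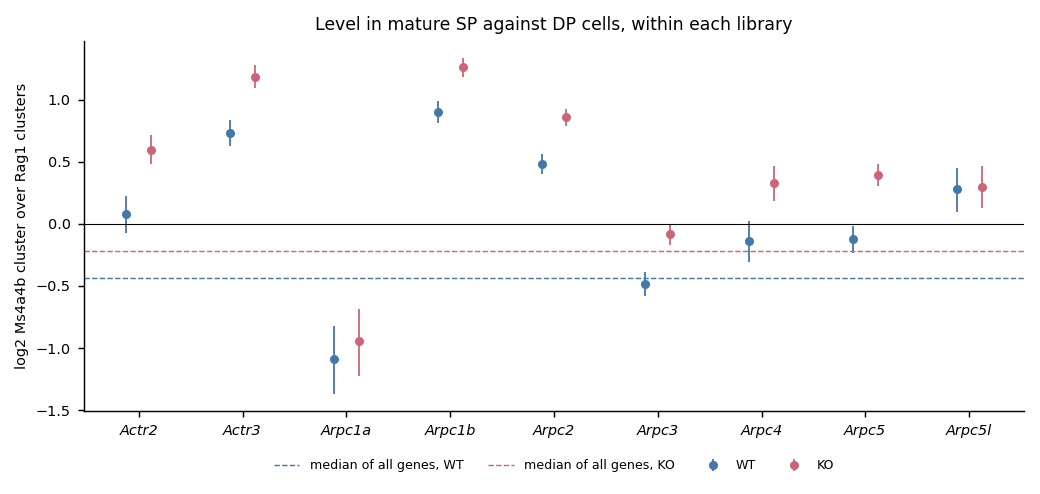
log2 of the level in the Ms4a4b cluster over that in the Rag1 clusters for each subunit, within the WT (blue) and KO (red) library, with exact 95% conditional binomial intervals and the median of all genes as dashed lines. Arpc1b and Actr3 are highest and Arpc1a lowest in both libraries, and Arpc5l has nearly the same value in each.

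Within each stage the libraries were then compared, by log2 of the KO level over that in WT. The median of all genes was 0.04 in the Rag1 clusters, 0.03 in the Cd5 clusters, 0.15 in the Itm2a and then 0.23 in the Ms4a4b cluster, and a gene was called when it lay at least 0.25 above or below that median. Ribosomal protein genes took 23.9% of the UMIs of the Itm2a cluster in the WT and 17.5% in the KO library, and 30.6% and 21.8% in the Ms4a4b cluster. Since the CPM of every other gene depends on this share, values relative to the median are also given.

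In the pooled sums of DP cells no subunit was called. The median over the 9 was 0.01 in the Rag1 clusters, where 10.6% of all genes were called higher and 6.38% lower, and -0.0014 in the Cd5 clusters, where 14.4% and 10.3% were. Taken cluster by cluster, and relative to the median, Arpc1a was called lower in cluster 2 (-0.46, -0.76 to -0.17, beside 10.4% of all genes), Arpc5l in cluster 3 (-0.30, -0.55 to -0.046, beside 11.5%) and Arpc4 in cluster 9 (-0.35, -0.65 to -0.045, beside 12.8%). The largest difference in the pooled Rag1 clusters was that of Actr2, 191 against 213 CPM or 0.16 (0.08 to 0.24). In the Itm2a cluster no subunit was called either, beside 16.1% of all genes called higher and 17.4% lower. The median was 0.15, or -0.0067 relative to all genes, and it turned to -0.021 with TMM factors. The highest there was Arpc3 with 0.33 (0.23 to 0.44), and Arpc2 had -0.02 (-0.10 to 0.07).

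In the Ms4a4b cluster all 9 ratios of CPM were above 0. The median of all genes was itself 0.23 there, and 47.5% of all genes were at least 0.25 above 0. Of the 9 subunits 7 were above that median, 6 of them with an interval above it. The share of all genes with such an interval was not computed. Arpc1a and Arpc5l were below that median. They turned below 0 with TMM factors (-0.22 and -0.23), DESeq2 size factors (-0.18 and -0.19) and totals without ribosomal protein and mitochondrial genes (-0.13 and -0.14). The ratio was 0.68 (0.51 to 0.85) for Actr2, 0.61 (0.48 to 0.74) for Arpc5, 0.46 (0.37 to 0.55) for Arpc2 and 0.43 (0.31 to 0.55) for Arpc3. It was 0.41 for Actr3 (0.29 to 0.54) and Arpc4 (0.21 to 0.61) and 0.37 (0.27 to 0.47) for Arpc1b. The remaining subunits were Arpc1a, with 0.04 (-0.33 to 0.41) from 123 UMIs in each library, and Arpc5l, with 0.03 (-0.19 to 0.26). Arpc1a and Arpc5l, 1 form of each alternative pair, thus had the lowest ratios, both at -0.19 relative to the median of all genes.

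Relative to the median of all genes, Actr2 stood at 0.45 and Arpc5 at 0.38, and these 2 of 9 were called higher, beside 23.2% of all genes. None was called lower, beside 23.5%. The count of called subunits is near the share of all genes, so it does not set the complex apart. The median over the 9 was 0.41, or 0.18 relative to all genes. It remained above 0 in every alternative tried, with 0.15 under TMM factors as the lowest and 0.68 in cells with Cd4 and without Cd8 UMIs as the highest. Actr2 and Arpc5 were called in all 17 settings compared, Arpc2 in 8, Actr3, Arpc3 and Arpc4 in 4 each, Arpc1b in 3 and Arpc5l and Arpc1a in none. These settings are not independent checks. A change of total cancels in a value relative to the median, so other totals, TMM and DESeq2 factors could not change a call. Resolutions 1.8 and 2 gave the same values as each other. Arpc1a was called lower in 1 setting, without the 5% of cells with most UMIs.

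**Figure D4:**
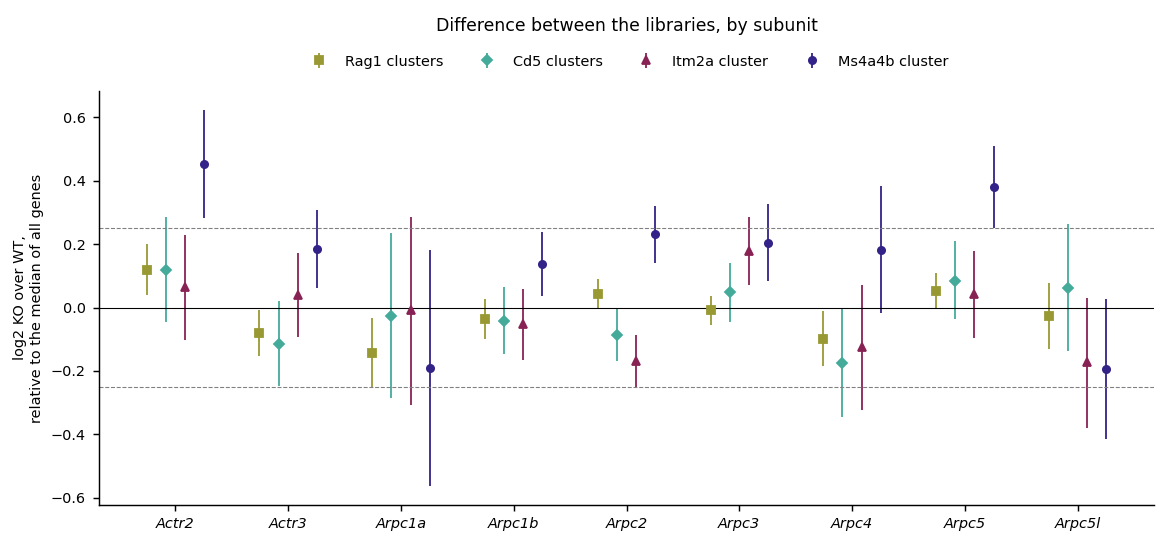
log2 ratio of the KO level to the WT level of each subunit, relative to the median of all genes, in 4 groups of clusters, with exact 95% conditional binomial intervals. Dashed lines mark the 0.25 used for a call, and only Actr2 and Arpc5 in the Ms4a4b cluster lie beyond them.

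**Figure D5:**
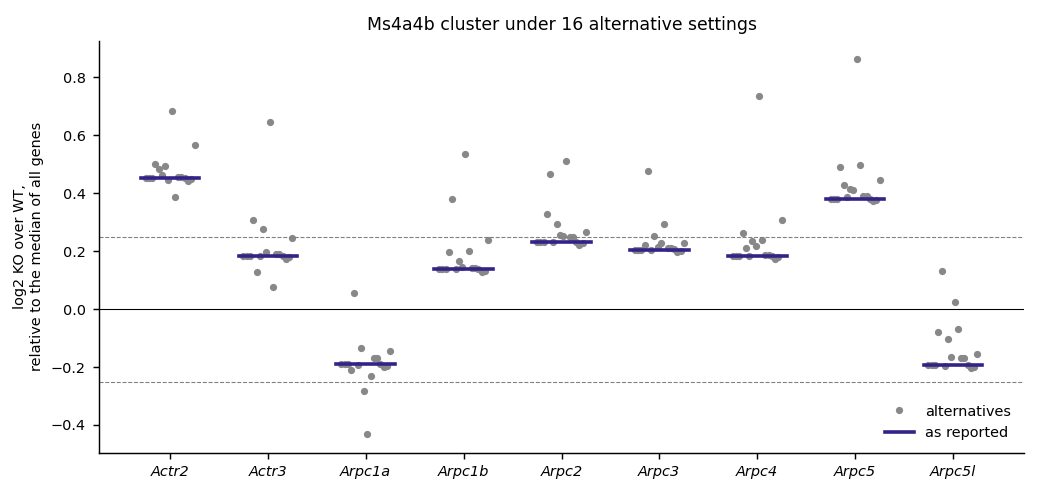
The same relative log2 ratio in the Ms4a4b cluster as reported (bars) and under 16 alternative settings (points, 1 per setting). Actr2 and Arpc5 lie above the upper dashed line (0.25) in every setting, and Arpc1a and Arpc5l lie near or below 0 in most. The points for other totals, TMM and DESeq2 factors equal the bar by construction.

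Other values of the Ms4a4b cluster moved with the label. The 6 single-positive markers summed to 3164 CPM in the WT and 4783 in the KO library, a mixed list in which Klf2 (679 and 1626) and S1pr1 (261 and 643) were higher and Ccr7 (252 and 197) and Itm2a (167 and 128) lower in KO. The 5 DP markers summed to 617 and 804, with Rag1 at 88.9 and 184 and Dntt at 61.8 and 129 but Cd8a at 339 and 294. The 6 genes of the early or gamma-delta list, all detected in both, summed to 183 and 336, with Trdc at 92.8 and 206 but Myl10 at 13.7 and 7.94 and Il2ra at 12.9 and 5.74. The 8 macrophage genes summed to 8.16, with C1qa, C1qc and Adgre1 at 0, and 39.3, with Adgre1 at 0. The 6 B cell genes were at 221 and 225 and the 6 dendritic cell genes at 1.29 and 7.50. Leaving out cells with a UMI of a gamma-delta receptor gene, an alternative chosen after the data were seen, gave a median of 0.49 and 4 subunits called higher, beside 24.3% of all genes. The part of maturity and cell mixture in the ratios was otherwise not tested. Cells that had kept the Cdc42 protein or not were not distinguished within the KO library.

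Actr2 and Arpc5 were also compared beyond the mature cells, where neither was called in the pooled Rag1 and Cd5 clusters or in the Itm2a cluster. The KO level of Actr2 was above the WT one in 15 of the 16 clusters, with an interval above 0 in 8 and below 0 in none. For Arpc5 this was so in 13 clusters, with intervals above 0 in 6 and below 0 in none. The median of all genes was itself above 0 in each of these clusters except cluster 15, the one where Actr2 was lower. Actr2 was above that median in 12 clusters and Arpc5 in 13. Relative to it the intervals of Actr2 were above in 5 clusters and those of Arpc5 in 3, and none was below. The share of all genes with such counts was not computed. By CPM alone, Arpc1a and Arpc4 were higher in the KO library in 5 clusters each, Actr3 in 7, Arpc5l in 8, Arpc2 in 9 and Arpc1b and Arpc3 in 11. The log2 ratio of mature to DP cells was larger in the KO library for all 9 subunits, where the medians of all genes differed by 0.22. The excess was 0.52 for Actr2 and 0.52 for Arpc5. It was 0.47 for Arpc4, 0.45 for Actr3, 0.40 for Arpc3, 0.37 for Arpc2 and 0.36 for Arpc1b. For Arpc1a (0.14) and Arpc5l (0.02) it was below that of all genes.

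In the Lars2, Myl10 and B and dendritic cell clusters, outside the stages compared above, the values rested on fewer UMIs. In the Lars2 cluster 6 subunits had at least 100 UMIs and 5 were called higher, beside 20.7% of all genes, with only that of Arpc5 (0.86, 0.37 to 1.39) having an interval above the median of all genes. In the Myl10 cluster Arpc1a was called higher, beside 17.4% of all genes, and Actr3 lower, beside 15.5%, and both intervals held the median. In cluster 15 Actr3, Arpc2 and Arpc3 were called lower, beside 28.0% of all genes, with the interval of Actr3 holding the median (-0.66 to 0.075), and Arpc5l was called higher, beside 31.9%, at 209 against 288 CPM. The makeup of that cluster differed, with B cell genes summing to 4874 and 40904 CPM and dendritic cell genes to 5883 and 3398, and which of its cells carried these levels was not tested.

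Among 57 genes that act on or with the complex, 56 were in the matrix, Wasf3 being the exception. In the Itm2a cluster 43 had at least 100 UMIs and 5 were called higher (11.6%, against 16.1% of all genes) and none lower, against 17.4%. The highest was Nck1, an adaptor that brings N-WASP to the membrane, with 71.8 and 107 CPM at a ratio of 0.57 on the log2 scale (0.29 to 0.86). At the lower end was Rac2, a Rac GTPase of blood cells, with 631 and 602 CPM and -0.07 (-0.17 to 0.04).

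In the Ms4a4b cluster 41 of these genes had at least 100 UMIs. Of them 1 was called lower (2.4%, against 23.5% of all genes) and 11 were called higher (26.8%, against 23.2%). Those called higher were Wasf2 of the WAVE family and Washc4 of the WASH complex, the Rac1 GTPase with its exchange factor Dock2 and that factor's partner Elmo1, the adaptor Nck2, the debranching protein Gmfb and the coronin Coro7, the actins Actb and Actg1, and Actr1a, an actin-related protein of dynactin. Actr1a had the highest ratio, 0.92 (0.47 to 1.40), from 26.6 and 50.7 CPM, and Abi3, a subunit of the WAVE complex, the lowest, -0.39 (-0.77 to -0.01), from 60.1 and 45.9 CPM. Nck2 alone was called higher in both single-positive clusters, with 0.48 (-0.10 to 1.06) in the former and 0.83 (0.27 to 1.42) in the latter, so the first of these did not exceed counting error. Relative to all genes the list had a median of 0.08 in the Itm2a cluster and of 0.13 in mature cells.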

How the data were processed

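Whole thymus of 5 mice of each genotype was pooled into 1 droplet library (3′ kit) for each genotype. The submitters' processing notes name Cell Ranger 3.0.2, STAR, Seurat and mm10. The authors deposited raw counts (UMIs per gene and cell, not normalized) and a table of Seurat clusters. Clusters of the current resolution were used, and genotypes were read from the cell names, where Cdc45 is written for Cdc42. Sums of counts over the cells of a cluster in each library were scaled to CPM, log2 ratios were taken after adding 0.5, and intervals (Poisson, conditional binomial, Clopper-Pearson) are exact 95% intervals for counting error only. PCR and sampling of mice are not covered. Calls needed 100 UMIs over both groups compared and a distance of 0.25 log2 (libraries) or 0.5 log2 (stages) from the median of all such genes. The ratio was tested on simulated data.

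Members, lists and alternatives were chosen with earlier results of these data known. All 9 members were named, and of the regulators those called in both single-positive clusters and the highest and lowest of each, with those called in the Ms4a4b cluster named after their values were seen. The alternatives used edgeR 4.0.16 (TMM), DESeq2 1.42.0 (size factors) and scanpy 1.11.5 (Scrublet). Its automatic threshold marked 2 WT and 0 KO cells as doublets and had not worked, so doublets were kept, and the highest-scoring 367 and 454 cells were left out as an alternative. Depth was a median of 6737.5 and 5032 UMIs per cell in the Ms4a4b cluster. Of the gene names, 19797 were found in GENCODE vM21, which gave positions. Word sharing was computed on the last 500 bases of transcripts.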

Additional observations from a re-analysis of the deposited data

Results flagged for a closer look

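For 2 subunits the libraries differed in opposite directions at different stages, each with a counting interval on its own side of the median of all genes. The difference between stages was not tested, since there is 1 library for each genotype. For Actr3 the log2 ratio of KO to WT, relative to that median, was 0.18 in the Ms4a4b cluster and -0.082 in the Rag1 clusters. For Arpc2 it was 0.23 in the Ms4a4b cluster, -0.17 in the Itm2a cluster and -0.087 in the Cd5 clusters.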

How the results depend on the processing

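No paired analysis was possible because each genotype has 1 library and no replicate number that could pair samples. The yardstick for a move of the median log2 ratio of the 9 subunits was the half-width of the counting interval of their summed ratio. That interval is narrower than those of single subunits, and the counting error of the median itself was not computed. The median moved by more than this half-width as follows, and the cause was not tested. In the Rag1 clusters it was 0.01 and became -0.029 with TMM factors, -0.034 with DESeq2 size factors and 0.046 in cells thinned to 1000 UMIs. In the Cd5 clusters it was -0.0014 and became 0.066 as a mean over cells, 0.10 after thinning and 0.049 without the cells of highest doublet score. In the Itm2a cluster it was 0.15 and became 0.034 with totals without ribosomal protein and mitochondrial genes, -0.021 with TMM factors, -0.020 with DESeq2 size factors, 0.035 after thinning and -0.030 in cells with only Cd8 UMIs. There, subunits called higher were 0 and became 2 after thinning (beside 19.2% of all genes), 1 in cells with only Cd4 UMIs (19.3%) and 1 when not taken relative to the median (34.5%), and subunits called lower became 3 in cells with only Cd8 UMIs (21.7%).

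In the Ms4a4b cluster the median of 0.41 became 0.24 with totals without ribosomal protein and mitochondrial genes, 0.15 with TMM factors, 0.19 with DESeq2 size factors, 0.48 as a mean over cells, 0.49 after thinning, 0.47 without high doublet scores, 0.68 in cells with only Cd4 UMIs and 0.49 without cells with gamma-delta receptor UMIs. The 2 subunits called higher became 5 as a mean over cells (beside 24.1% of all genes), 5 after thinning (29.2%), 5 without high doublet scores (23.2%), 6 and 4 in cells with only Cd4 or only Cd8 UMIs (27.0% and 25.7%), 4 without cells with gamma-delta receptor UMIs (24.3%) and 7 when not taken relative to the median (47.5%). Subunits called lower were 0 and became 1 without the 5% of cells with most UMIs (23.9%). The KO Arpc5l share there was 21.5% and became 24.7% after thinning. No called value changed sign. Medians in the Rag1, Cd5 and Itm2a clusters did, as given above, and so did ratios of single subunits that were not called, among them Arpc1a and Arpc5l in the Ms4a4b cluster under other scalings. The coreceptor settings kept 76 and 90 (Cd4) and 106 and 97 (Cd8) cells of this cluster, so single subunits rest on few UMIs there, and 236 and 220 cells of the libraries were too shallow to thin.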
